A study of Mus musculus with 6 samples.

Results

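The cytosolic ribosomal proteins were followed as 95 array probes for 64 genes, out of 45281 probes and 19057 named genes in all. The members are every probe whose platform gene symbol begins with Rpl or Rps and a digit, or is Rpsa, Rplp0, Rplp1 or Rplp2, without the Rps6k kinases, the Rps19bp gene and symbols marked as pseudogenes. Of these genes, 38 belong by name to the large subunit and 26 to the small subunit. RNA came from mouse Sertoli cells, the somatic nurse cells of the seminiferous tubule, sorted by the fluorescence of a Sox9-GFP label at 6 weeks of age from mice of C57B6J/129SvEv background. The Rb cKO group (genotype Rb1 flox/-; Amh-Cre +) carries a floxed and a null allele of the retinoblastoma gene plus a Cre recombinase driven by the Amh promoter, which is active in Sertoli cells. The Control group (Rb1 flox/-) carries the same alleles without Cre, so both groups lack 1 copy of Rb1 and Cre is present in the Rb cKO group only. Each group has 3 Illumina bead arrays. The labels do not tell whether each array stands for its own animal; the p-values therefore reflect spread among arrays, part or all of which may be technical.

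The cytosolic ribosome joins a small subunit, which reads the mRNA, to a large subunit, which forms the peptide bond, and each holds a set of ribosomal proteins around its ribosomal RNA. Their genes are transcribed strongly and in concert in nearly all cells. Their mRNAs begin with a pyrimidine run, the TOP motif, through which translation follows mTOR activity. Several genes have a paralog with a narrower tissue range, and processed pseudogenes are numerous, so a probe may also read a near-identical copy and each level is uncertain in that respect. The Rb protein is known to restrain RNA polymerases I and III, which make ribosomal RNA and transfer RNA. The comparison describes whether the protein side of the ribosome differs at the mRNA level between Rb cKO and Control cells.

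The start sites of several members are shown here because the pyrimidine run lies there. RefSeq promoters of the GRCm38.p6 assembly were found for 53 of the 64 genes, and each line gives 30 bases, 15 before the listed start and 15 from it on, 5′ to 3′ on the strand of the gene, with CTTTC in capitals.
Rpl28, chr7:4792950-4792979, plus strand: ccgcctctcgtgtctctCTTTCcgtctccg
Rpl35, chr2:39005117-39005146, minus strand: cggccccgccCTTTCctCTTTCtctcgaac
Rpl7a, chr2:26910792-26910821, plus strand: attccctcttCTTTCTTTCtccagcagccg
Rpl38, chr11:114668565-114668594, plus strand: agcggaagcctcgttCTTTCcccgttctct
Rps10, chr17:27635230-27635259, minus strand: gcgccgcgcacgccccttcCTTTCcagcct
Rps26, chr10:128626492-128626521, minus strand: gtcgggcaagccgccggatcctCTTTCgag
Rpl39l, chr16:10170213-10170242, plus strand: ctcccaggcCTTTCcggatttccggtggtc
Rps6, chr4:86857353-86857382, minus strand: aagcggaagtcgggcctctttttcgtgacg
The letters CTTTC stood in this window in 13 of the 53 genes, 24.5%, against 4.76% of the 27025 genes of the promoter table. Most lines shown hold these letters, so the lines do not stand for the members as a whole. Their reverse complement GAAAG stood in it in 3.77% of the member genes, against 4.21% of all genes. The letters CCGGAAG, a core that ETS family factors can bind, stood on either strand of the 300-base promoters of 23 member genes, 43.4%, against 9.93% of all genes. Rps6 has a longer thymine run in place of CTTTC, and a missing match says only that these letters are not in the window. A match may lie before the listed start, as in Rpl39l, and does not show that the mRNA begins with these letters. The difference between groups, described next, had a median of 0.17 over the 12 tested genes with CTTTC and of 0.10 over the 37 tested genes without it, on the log2 scale. Of these, 10 and 24 genes were higher in Rb cKO.

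Facts of the whole series bear on these values in several ways. Between 43.0% and 50.04% of probes were detected on the Rb cKO arrays and between 45.99% and 53.5% on the Control arrays. Rb cKO replicate 1 and Control replicate 3 stood apart, at -113.9 and 110.2 on a first principal component holding 58.9% of the variance, with the other arrays between -34.3 and 31.4. Both Rb1 probes were lower on each Rb cKO array than on any Control array, by -1.22 ± 0.32 and -0.98 ± 0.34 (SE) log2 units, without passing the test (limma adjusted p of 0.399 and 0.668); whether they lie in the deleted part was not determined. All 16 Sertoli markers with a named probe were detected, among them Sox9, and so were 13 of 13 spermatid markers, so RNA of other cells was present in both groups. Relative to the Control mean, the mean of the Sertoli markers stood at -1.35, -0.49 and -0.35 log2 units on Rb cKO replicates 1 to 3 and between -0.25 and 0.23 on the Control arrays. The endothelial markers stood between 0.69 and 1.75 in Rb cKO and between -0.38 and 0.25 in Control, with Kdr not detected on any array. The Leydig cell markers stood between 0.59 and 1.70 in Rb cKO and between -0.29 and 0.23 in Control. Of their 5 tested genes 4 were higher in Rb cKO, and Hsd3b1 was not detected. The leukocyte markers stood between 0.62 and 1.27 in Rb cKO and between -0.45 and 0.27 in Control. Of their 7 tested genes 6 were higher in Rb cKO and 1 was lower without overlap of the groups, with Ptprc and Itgam not detected. The peritubular myoid markers stood at 1.28, 0.58 and 1.17 in Rb cKO and at 0.28, 0.10 and -0.38 in Control, with all 6 tested genes higher in Rb cKO and Tagln and Cnn1 not detected. The spermatogonia markers also separated the groups, between 0.25 and 0.70 in Rb cKO and between -0.14 and 0.07 in Control. Of their 11 tested genes 8 were higher in Rb cKO, with Zbtb16 and Nanos3 not detected. The part of these markers in the results below was not tested, and in such samples fewer cells of a type and less RNA per cell cannot be told apart.

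Ribosomal protein transcripts showed no difference that passed the test between Rb cKO and Control cells, and for most genes the interval of the difference was narrower than 2-fold either way. Intensities were background-corrected and quantile-normalised to the log2 scale, and a limma fit covered all 21805 probes that were detected on 3 or more arrays. Of the 95 member probes 79 were tested, for 58 genes, and 16 were not: 13 were detected on no array and 3 on 1 or 2 arrays. Rpl14, Rpl17, Rpl6, Rps20, Rps23 and the retrogene Rps23rg1 had no tested probe, so nothing is known of them here. Among the tested member probes 0 passed an adjusted p under 0.05, where 0.142% of all tested probes were called higher in Rb cKO and 0.0% lower. The smallest adjusted p of a member was 0.763 and 1 member probe, 1.27%, had an unadjusted p under 0.05, against 6.39% of all tested probes (4.63% higher and 1.76% lower in Rb cKO). This count of member probes moved with the setting, as did that of all probes. The member count was 5 with the replicate number as a block, where 3257 of the 21805 tested probes had an unadjusted p under 0.05. It was 6 with array weights, where 3072 did. Without Rb cKO replicate 3 it was 8, where 2338 did, and without Rb cKO replicate 1 it was 0, where 817 did. With the replicate number as a block 0 of all probes were called, against 31 without it, and 0 member probes in both fits. The smallest limma adjusted p of a member was 0.247 with the block.

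Of the tested member probes 67.1% had a positive difference, against 57.0% of all tested probes. On each gene's brightest tested probe, 40 of the 58 genes were higher in Rb cKO, 69% against 61.3% of all 12277 tested genes. The median difference was 0.12 log2 units over these genes and 0.12 over all genes, while the mean was -0.01 over these genes and 0.11 over all genes. Median and mean thus differ in sign. The mean takes in the large negative differences of Rpl7a (-2.18), Rps4l (-1.49), Rpl27 (-1.14), Rps6 (-1.13) and Rps7 (-0.95). The probes of these genes were low on Rb cKO replicate 1, as described further on, so the mean does not describe the members as a whole. The 35 large subunit genes had a median of 0.12, with 25 higher, and the 23 small subunit genes had a median of 0.16, with 15 higher. The 95% interval of the difference lay within 1 log2 unit either way, that is within 2-fold, for 38 of the 58 genes and for 51 of the 79 probes. The median standard error was 0.27 log2 units for member probes, against 0.34 for all tested probes. These probes were bright: 12 of the 100 brightest tested probes were members, and 36 members averaged over 5000 scanner units, where 913 probes of the whole array did. For most member probes the error from the beads of 1 array was below the spread between arrays. The standard error of a probe's bead mean had a median of 0.044 log2 units on each probe's worst array, while the median SD within a group was 0.24 in Rb cKO and 0.22 in Control.

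**Figure D1:**
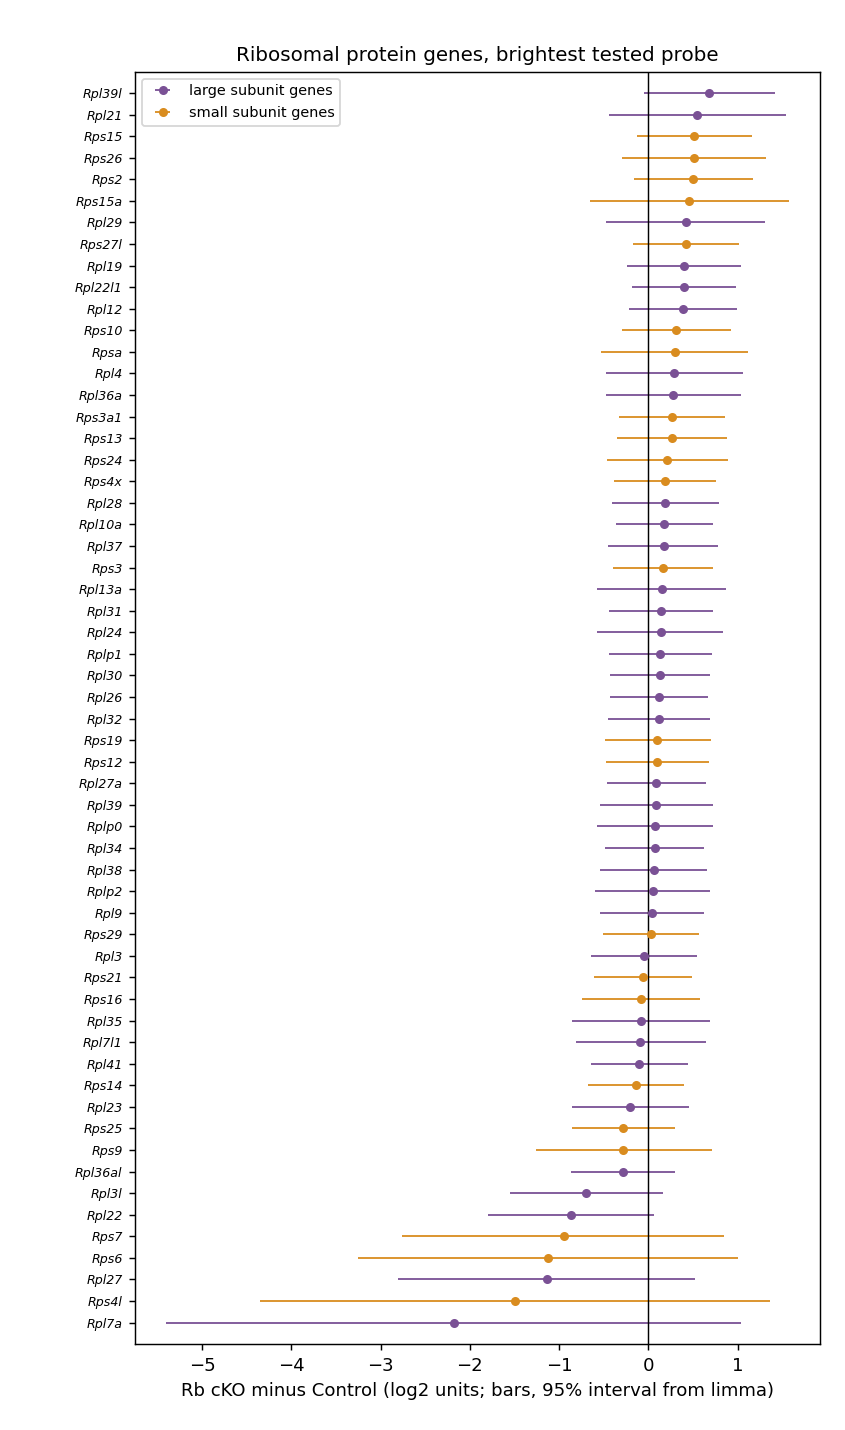
Difference between Rb cKO and Control (x axis, log2 units) for the 58 tested ribosomal protein genes, each by its brightest tested probe, with the 95% interval from limma as a bar, large subunit genes in purple and small subunit genes in orange. Every bar crosses 0; 40 points lie above 0, and 5 genes at the bottom, from Rpl7a to Rps7, have wider bars than every other gene.

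Members that bind translation factors or carry other known roles did not pass the test, and Rps6, among them, is described further on with the probes that were low on 1 array. Rplp1, an acidic protein of the stalk that recruits elongation factors, was at 14.57, 14.76 and 14.82 in Rb cKO, against 14.57, 14.75 and 14.43 in Control (normalised log2 intensity, replicates 1 to 3). Its difference was 0.13 ± 0.25 (SE), with a 95% interval from -0.44 to 0.71. Rplp0, which anchors the stalk to ribosomal RNA, was at 9.49, 9.38 and 9.03 in Rb cKO, against 8.93, 9.50 and 9.25 in Control. The 2 groups overlap for both genes, and for Rplp2, the other acidic protein, whose means were 13.55 ± 0.28 in Rb cKO and 13.50 ± 0.21 in Control (SD, n = 3 each). Rps19, the gene most often mutated in Diamond-Blackfan anaemia in humans, averaged 13.52 ± 0.12 in Rb cKO and 13.42 ± 0.24 in Control. Rpl13a, often used as a reference gene, averaged 9.95 ± 0.17 in Rb cKO and 9.80 ± 0.44 in Control, and its difference of 0.15 was -0.08 without Control replicate 3. Rpsa, a small subunit protein also known as a laminin receptor, averaged 6.25 ± 0.32 in Rb cKO and 5.95 ± 0.54 in Control on a dim probe, and the interval of its difference ran from -0.53 to 1.12. Rpl5 and Rpl11, which bind Mdm2 together, had no probe under those symbols.

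Groups did not overlap for 9 member probes higher in Rb cKO and 4 lower, 16.5% of the 79, against 12.1% of all tested probes (8.04% higher and 4.01% lower). The lower ones were Rpl36al, Rpl41, Rps14 and Rps25, by 0.10 to 0.28 log2 units. Rpl41, one of the shortest proteins of the cell, was at 14.52, 14.55 and 14.57 in Rb cKO, against 14.59, 14.70 and 14.64 in Control, so the groups separated by very little. Rps25, a head protein of the small subunit used in translation from some internal entry sites, was at 11.50, 11.52 and 11.23 in Rb cKO, against 11.57, 11.67 and 11.87 in Control, a difference of -0.28 ± 0.25 (SE; limma adjusted p of 0.769). Its bead error reached 0.145 log2 units on 1 array, about as large as the SD between arrays, 0.16 in Rb cKO and 0.15 in Control. The higher ones included Rps15, a head protein near the decoding site, at 11.50, 11.78 and 11.77 in Rb cKO, against 11.26, 11.44 and 10.81 in Control. Its difference was 0.51 ± 0.28 (SE; limma adjusted p of 0.766), with an interval from -0.13 to 1.16. Rpl12, a large subunit protein at the base of the stalk, was at 13.22, 12.92 and 12.95 in Rb cKO, against 12.77, 12.76 and 12.38 in Control. Control replicate 3 was the lowest array for both genes.

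Among the other genes at the upper end, Rps26, a small subunit protein at the mRNA exit, was at 13.41, 13.29 and 12.94 in Rb cKO, against 12.99, 13.04 and 12.06 in Control, a difference of 0.51 ± 0.34 (SE). The groups overlap, and Control replicate 3 lies well below the rest. Rpl21, a large subunit protein, had 3 dim tested probes with differences from 0.21 to 0.55; the brightest was at 7.14, 6.42 and 5.89 in Rb cKO, against 6.14, 6.34 and 5.32 in Control. Rps15a averaged 6.24 ± 0.51 in Rb cKO and 5.78 ± 0.83 in Control. Without both Rb cKO replicate 1 and Control replicate 3 the differences of Rpl21 and Rps15a were -0.09 and -0.19.

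Probes of some genes had far less signal on Rb cKO replicate 1 than on any other array. By a rule set after seeing the values, 9 of the 79 tested member probes lay over 1 log2 unit below every other array there, 11.4% against 6.15% of all tested probes, with gaps of 1.53 to 4.77. They belong to Rpl27, Rpl29, Rpl7a, Rps2, Rps3, Rps4l, Rps6, Rps7 and Rps9, and the next probe, the other one of Rps9, had a gap of 0.97. Rps6, the small subunit protein phosphorylated downstream of mTOR, was at 7.81, 10.87 and 11.67 in Rb cKO, against 11.09, 11.06 and 11.58 in Control. Rps7, a small subunit protein known to bind Mdm2, was at 10.35, 13.09 and 13.50 in Rb cKO, against 13.47, 13.03 and 13.30 in Control. In both genes replicates 2 and 3 of Rb cKO lie among the Control arrays or next to them.

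Rpl27, a large subunit protein, was at 9.65, 11.80 and 12.62 in Rb cKO, against 12.52, 12.16 and 12.81 in Control. Rpl7a, a large subunit protein, was at 4.55, 7.10 and 9.98 in Rb cKO, against 8.54, 8.33 and 11.30 in Control. Rpl7a thus spanned more than 5 log2 units within Rb cKO, and its difference of -2.18 ± 1.37 (SE; limma adjusted p of 0.766) had an interval from -5.40 to 1.04. All 9 probes had a negative difference. Without Rb cKO replicate 1 their differences ran from -0.85 to 0.37, with 5 positive and 4 negative. Over the other 5 arrays these probes kept a common order in part: Rb cKO replicate 2 was the lowest for 6 of the 9, and the highest was Rb cKO replicate 3 for 7 and Control replicate 3 for 2. The remaining 70 tested member probes had differences from -0.87 to 0.92 with a median of 0.13, and 53 were positive. The 9 probes set aside were chosen for low values on a Rb cKO array. Leaving them out therefore raises the share of positive differences by the choice itself. All tested probes were not treated alike for comparison.

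Some of these genes had a second probe that did not lose its signal on that array. For Rps2, a small subunit protein near the mRNA entry, probe ILMN_2717549 read 25112, 18916 and 20042 scanner units in Rb cKO, against 15581, 15322 and 9535 in Control. Probe ILMN_2946616 of the same gene read 75.3, 1612 and 8134 in Rb cKO, against 3300.0, 2246 and 5451 in Control. On Rb cKO replicate 1 the brighter probe thus had its highest reading and the other its lowest. The normalised differences of the 2 probes were 0.50 and -2.09. For Rps3, which lines the mRNA entry, 1 probe read 5013, 5644 and 4671 in Rb cKO, against 4266, 3922 and 3866 in Control. The other read 170.3, 2084 and 3817 in Rb cKO, against 1765, 1802 and 3221 in Control. For Rpl29, a large subunit protein, the brighter probe read 6716, 4209 and 2884 in Rb cKO, against 4439, 2855 and 1839 in Control, and the other read 58.4, 263.8 and 574.1 in Rb cKO, against 304.3, 229.1 and 439.2 in Control.

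**Figure D2:**
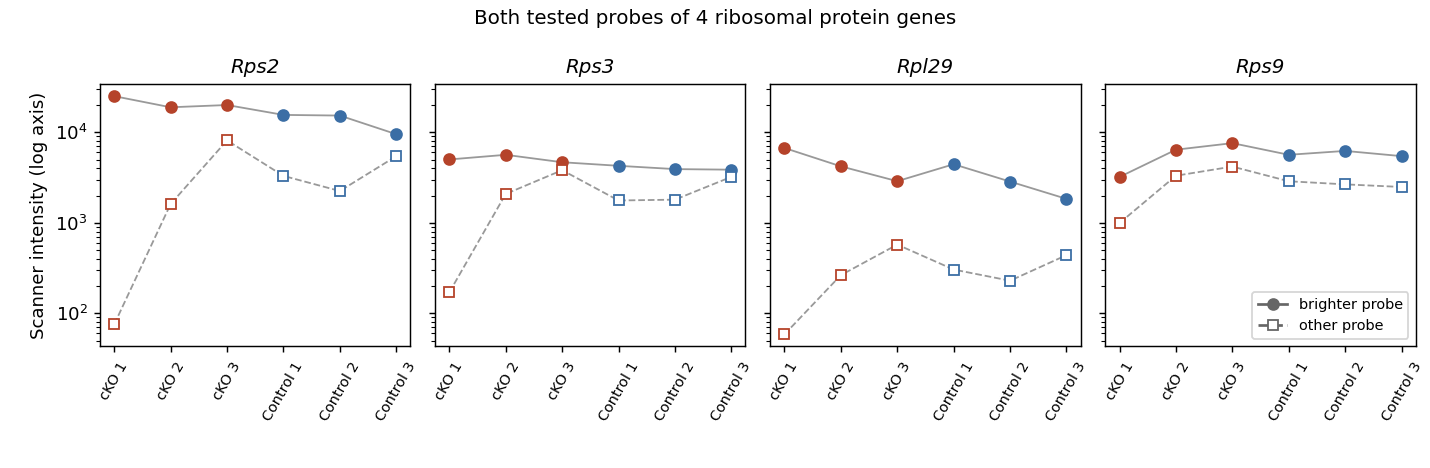
Scanner intensity (y axis, log scale) of both tested probes of Rps2, Rps3, Rpl29 and Rps9 on the 3 Rb cKO arrays (red) and the 3 Control arrays (blue), with filled circles for the brighter probe and open squares for the other. The open squares of Rps2, Rps3 and Rpl29 drop to 75.3, 170.3 and 58.4 on Rb cKO replicate 1, where the filled circles stay among the other arrays or above them; both probes of Rps9 are lowest there.

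Of the 15 member genes with several tested probes, 4 had 1 probe low on Rb cKO replicate 1 by this rule and another not, 26.7% against 14.7% of the 4247 such genes of the array. Rps9 is among these 4 by a narrow margin, since its other probe was also lowest there, with a gap of 0.97. The probes of 9 of the 15 genes agreed in the sign of their difference, and 61.7% of all such genes did. Where no probe was low on that array, probes mostly gave like differences. The 4 probes of Rpl27a, a large subunit protein, gave 0.02 to 0.15. The 3 of Rpl23, also of the large subunit, gave -0.21 to 0.01. The pairs of Rpl28, Rps12 and Rps13 differed by 0.01, 0.06 and 0.07. The median spread of differences within a gene was 0.14 log2 units for the members and 0.38 for all such genes. What sets the low probes apart on that array was not tested, since probe positions were not used here.

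Rps24, a small subunit protein with alternatively spliced transcripts, was the exception among the genes without a low probe. Its probe ILMN_2625060, which the platform annotation pairs with another RefSeq transcript than its brightest probe, was at 7.81, 7.05 and 6.71 in Rb cKO, against 6.55, 6.48 and 5.79 in Control. The groups did not overlap, and the difference was 0.92 ± 0.38 (SE), 1.89-fold, with an unadjusted p of 0.0439 and an adjusted p of 0.763 in limma. Without Rb cKO replicate 1 the difference was 0.60. Its brightest probe was at 14.72, 14.36 and 14.08 in Rb cKO, against 14.46, 14.02 and 14.03 in Control, a difference of 0.21 ± 0.29 (SE). The remaining tested probe, ILMN_1214875, gave -0.06. These 3 probes thus differ from each other by up to 0.98 log2 units.

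Paralogs of ribosomal proteins were measured for 7 genes, and none passed the test. Rps27l, a paralog of Rps27 known as a p53 target, was at 13.92, 13.59 and 13.46 in Rb cKO, against 13.33, 13.19 and 13.17 in Control. Its difference was 0.42 ± 0.25 (SE), 1.34-fold, with a limma adjusted p of 0.766 and an interval from -0.17 to 1.01. Rpl22l1, the paralog that Rpl22 is known to hold down in mice, was at 7.48, 7.38 and 7.09 in Rb cKO, against 6.94, 6.97 and 6.83 in Control. On these normalised values neither gene overlapped between the groups, and both had their highest value on Rb cKO replicate 1. Before normalisation the groups overlapped for both. Rpl22l1 read 178.2, 206.4 and 180.4 scanner units in Rb cKO, against 143.9, 129.5 and 182.1 in Control. Rps27l read 10362 on Rb cKO replicate 3 and 10546 on Control replicate 1. Rpl22 itself was at 8.09, 8.94 and 9.44 in Rb cKO, against 9.32, 9.78 and 9.98 in Control, a difference of -0.87 ± 0.40 (SE; limma adjusted p of 0.766). The groups overlap by Rb cKO replicate 3, and without Rb cKO replicate 1 the difference was -0.50.

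Rpl39l, the paralog of Rpl39 that mouse male germ cells use, was at 8.63, 8.23 and 7.95 in Rb cKO, against 8.01, 7.31 and 7.44 in Control. Its difference of 0.68 ± 0.31 (SE) was 1.61-fold, with a limma adjusted p of 0.766, and only Rb cKO replicate 3 lay below a Control array. The mean of the spermatocyte markers, of which Sycp3, Dmc1 and Hormad1 were not detected, was taken relative to Control. It was 0.44, 0.04 and 0.33 log2 units in Rb cKO, against 0.39, -0.52 and 0.13 in Control. That of the spermatogonia markers was 0.70, 0.25 and 0.42 in Rb cKO, against 0.07, 0.07 and -0.14 in Control, without overlap of the groups. For the spermatid markers the mean was -0.04, 0.28 and 0.40 in Rb cKO, against 0.38, -0.17 and -0.21 in Control, with overlap. The part of these germ cell lists in the Rpl39l values was not tested. Rpl39 itself differed by 0.09. Rpl3l, the striated muscle paralog of Rpl3, was dim, at 6.10, 6.09 and 5.17 in Rb cKO, against 6.54, 6.85 and 6.06 in Control. Rpl36al, an autosomal copy of the X-linked Rpl36a, averaged 12.56 ± 0.22 in Rb cKO and 12.85 ± 0.07 in Control, while Rpl36a differed by 0.28, and by 0.02 without Rb cKO replicate 1. Both Rpl7l1 probes were level, at -0.09 and -0.10. Rps4l, a relative of Rps4x, was at 4.52, 6.47 and 9.63 in Rb cKO, against 8.05, 7.45 and 9.62 in Control, and is among the probes low on Rb cKO replicate 1.

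**Figure D3:**
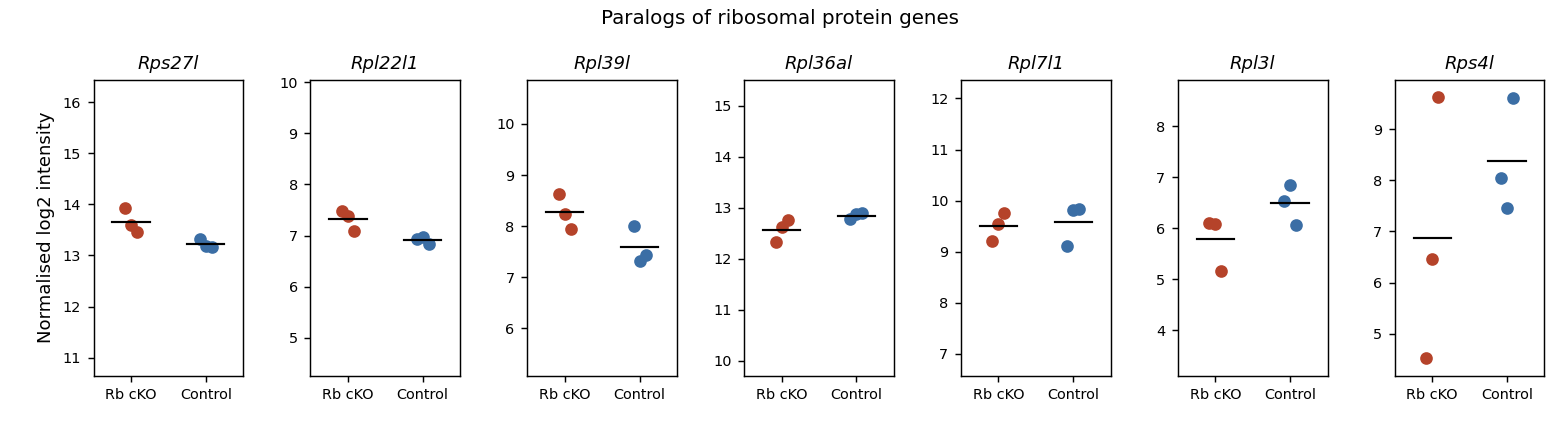
Normalised log2 intensity (y axis) of 7 ribosomal protein paralogs on each Rb cKO array (red) and Control array (blue), with group means as black bars; every panel spans the same number of log2 units. The groups separate for Rps27l and Rpl22l1 upwards and for Rpl36al downwards, and Rps4l ranges from 4.52 to 9.63 within Rb cKO.

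The level of the whole set on each array depended on the scaling. With quantile normalisation the mean of the 58 genes, relative to the Control mean, was -0.13, 0.02 and 0.08 log2 units in Rb cKO, against -0.01, 0.06 and -0.05 in Control. With arrays scaled to a common median the same mean was 0.30, 0.17 and -0.02 in Rb cKO, against 0.30, 0.29 and -0.60 in Control. The group ranges overlap under both, and Control replicate 3 was the low array under median scaling, where all tested genes stood at -0.38 there. The median difference of the 58 genes was 0.29 under median scaling and 0.25 with the deposited log2 values, beside 0.20 and 0.15 for all genes, and it was 0.03 without both Rb cKO replicate 1 and Control replicate 3, beside -0.03. Taken array by array, 44.3% of the tested member probes were highest on Rb cKO replicate 1, against 35.9% of all tested probes, and 25.3% on Rb cKO replicate 3, against 11.6%. Rb cKO replicate 2 was highest for 2.53%, against 5.37%. Among the Control arrays, 0 member probes were highest on replicate 1, against 9.81% of all, 19% on replicate 2, against 21.4%, and 8.86% on replicate 3, against 15.9%. The lowest array was more often one of the arrays that stood apart: Control replicate 3 for 38% of member probes, against 41.4% of all, and Rb cKO replicate 1 for 25.3%, against 22.4%. Rb cKO replicates 2 and 3 were lowest for 2.53% and 11.4%, against 2.55% and 15.7%, and Control replicates 1 and 2 for 16.5% and 6.33%, against 8.83% and 9.09%.

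**Figure D4:**
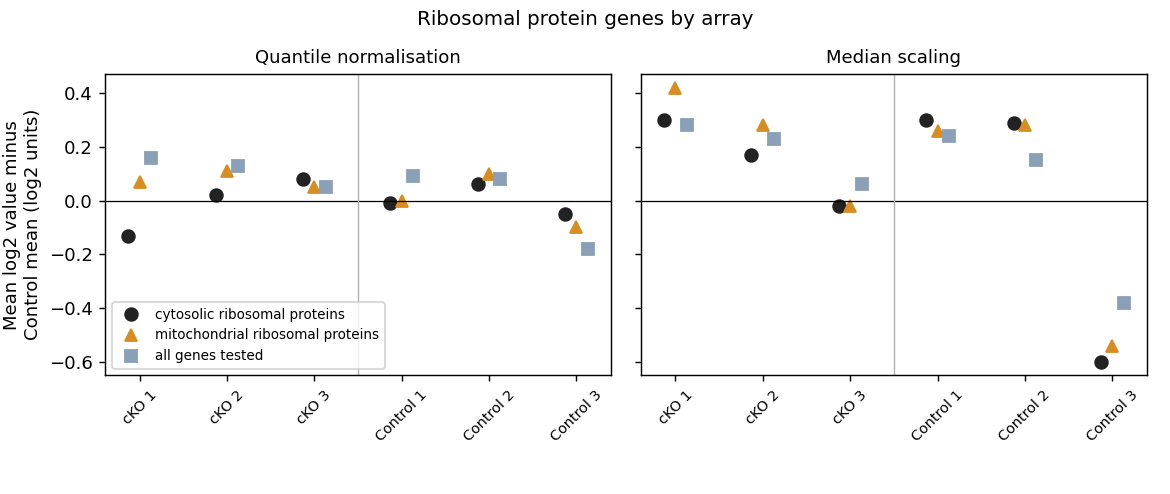
Mean of the tested genes of each list on each array minus the Control mean (y axis, log2 units), under quantile normalisation (left) and median scaling (right), with the 3 Rb cKO arrays to the left of the grey line. Under median scaling the cytosolic ribosomal proteins stand at 0.30 on Rb cKO replicate 1 and at -0.60 on Control replicate 3, and the mitochondrial ribosomal proteins and all genes are low on the same Control array.

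Other genes of translation were counted in the same fit, each by its brightest tested probe, and none passed the test. Of 72 tested mitochondrial ribosomal proteins, 50 were higher in Rb cKO with a median of 0.13. The smallest p was that of Mrpl35, a large subunit protein of the mitochondrion, at 8.06, 7.79 and 7.20 in Rb cKO, against 6.87, 7.15 and 5.99 in Control (difference of 1.01 ± 0.39, SE; limma adjusted p of 0.732). Of 30 initiation factors 17 were higher, with a median of 0.02. Among them Eif4ebp1, the mTOR-controlled inhibitor of cap-dependent translation, was at 10.84, 10.18 and 10.12 in Rb cKO, against 8.56, 8.56 and 8.62 in Control. The groups lay far apart, by 1.80 ± 0.29 (SE), with a limma adjusted p of 0.101. Eif2s3x, a subunit of the factor that brings the initiator transfer RNA, was lower on every Rb cKO array, by -0.69 ± 0.34 (SE; limma adjusted p of 0.766).

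Of 9 elongation factors 5 were higher, with a median of 0.18. Eef2, the translocation factor, read 11.70 on Control replicate 3 and between 4.96 and 5.27 on the other 5 arrays, so that 1 array sets its difference of -2.26 ± 1.63 (SE). Ribosome biogenesis factors had a median of 0.02 over 32 genes, with 17 higher, and the machinery of RNA polymerases I and III a median of -0.04 over 23 genes, with 9 higher. Rrp1b, a nucleolar biogenesis factor, differed by 0.83 ± 0.40 (SE) without overlap of the groups. Other mRNAs of the TOP class, with the same Eef2 probe again among them, had a median of -0.01 over 14 genes. Among 12 tested regulators, Mdm2, the p53 ubiquitin ligase that several ribosomal proteins bind, was at 12.13, 11.83 and 11.74 in Rb cKO, against 11.47, 11.47 and 11.04 in Control, a difference of 0.57 ± 0.27 (SE; limma adjusted p of 0.766). The ribosomal proteins and these lists thus had medians between -0.04 and 0.18, beside 0.12 for all genes tested.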

How the data were processed

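Per the labels' protocols, RNA of sorted cells was column-extracted, amplified and labelled with biotin. The submitters' processing notes name BeadStudio and give no version of it. Per the file headers, the deposited scanner tables hold the mean intensity of each probe, the SD between its beads, the count of beads (a median of 43 to 44 per probe) and a detection score; a score over 0.95 was taken as detection. The deposited series table holds log2 values, found to equal log2 intensity less the 75th percentile of its array and then less the probe's median: all 45281 entries found 1 scanner probe of their own within 0.00069, the nearest second probe being 0.0042 away. Its column medians ran from -0.194 to 0.244 in Rb cKO and from -0.301 to 0.098 in Control. Which tool did this is not given here.

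By the platform annotation 34885 probes have a single symbol, 18 have more and 10378 have no symbol. Intensities were normalised with neqc (offset of 16) in limma 3.58.1 (R 4.3.3); probes detected on at least 3 arrays were fitted with lmFit and eBayes, two-sided, group as the only term, Benjamini-Hochberg adjustment at 0.05 over all probes. The fit was tested on simulated data. The number of arrays limits the precision. Named were, by each gene's brightest tested probe, the 8 genes with the largest positive and the 8 with the largest negative difference, paralogs and members of known role; up to 2 genes with the smallest p came from each other list. Rps24, Rpl12, Rpl41, the genes with a low probe and other members named besides were chosen after their values were seen. The members, lists and tests were chosen with earlier results of these data known. Same-numbered arrays deviated from their group means together (r of 0.262, 0.41 and 0.473 for numbers 1 to 3). The replicate numbers of the titles were entered as a block in an alternative. Arrays of unlike numbers were not compared in this way, so these values do not establish that the samples were paired. Other alternatives changed the background correction, scaling, probe filter, probes per gene, array weights and arrays used.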

Additional observations from a re-analysis of the deposited data

How the results depend on the processing

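No member probe was called under any of the 16 alternatives. The count of all probes called, 31, became 1 when dim probes were kept, 13 on uncorrected intensities, 12 when normexp used an offset of 50, 56 with the brightest probe of each gene, 314 with array weights, 0 with the replicate block and 6 without both Rb cKO replicate 1 and Control replicate 3. The weights put 354.5 on Rb cKO replicate 2 and under 0.7 on each other array, and their estimation stopped before converging. Leaving out 1 array gave 0 to 15 calls, with 8, 2 and 15 without Rb cKO replicates 1, 2 and 3 and 0 without any 1 Control array. The block changed no member call. The median of the ribosomal protein genes, 0.12, became 0.29 with median scaling, 0.25 with the deposited log2 values and 0.03 without both arrays; leaving out 1 array gave 0.06 to 0.16. Single genes changed sign without passing in either setting. Without both arrays the differences were -0.09 for Rpl21, 0.18 for Rpl7l1, -0.13 for Rpsa, -0.07 for Rpl13a, -0.19 for Rps15a, 0.30 for Rps4l, -0.01 for Rplp0, 0.10 for Rpl7a, -0.13 for Rpl29, 0.19 for Rps6, 0.05 for Rps7 and -0.18 for Rplp2. Rpl7l1 was at 0.02 with median scaling. Leaving out 1 array gave -0.32 to 0.06 for Rpl7l1, -0.07 to 0.21 for Rplp0, -0.07 to 0.20 for Rplp2, -0.005 to 0.23 for Rps19, -0.08 to 0.36 for Rpl13a, -1.91 to 0.03 for Rps6 and -1.55 to 0.03 for Rps7, and kept the sign of Rpl21 (0.22 to 0.85), Rpsa (0.02 to 0.55), Rps15a (0.03 to 0.86), Rpl29 (0.11 to 0.67), Rps4l (-2.87 to -0.32) and Rpl7a (-3.57 to -0.85). The causes were not tested. Signal limits the dim members: 16 of 95 probes were not tested.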
